A study of Mus musculus with 10 samples.

Results

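Collagen genes were followed chain by chain in the mammary gland of mice that had eaten more folic acid (FA) in adult life and had then been back on a common diet for 4 weeks. The members were all protein-coding genes whose symbol has the form of a collagen alpha chain, without Col17a1, and they came to 43 of the 46983 genes in the count lists. They were sorted by the structure of the molecule into 11 fibrillar chains, 6 chains of the basement membrane type IV, 6 chains of type VI, 9 FACIT chains (fibril-associated collagens with interrupted triple helices) and 11 other chains.

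Each collagen molecule is a trimer in which the chains wind into a triple helix, and the winding needs a glycine at the first place of every Gly-X-Y triplet. Fibrillar collagens pack into the fibrils of the stroma, and FACITs sit on the surface of such fibrils. Type IV collagen builds the sheet-like network of basement membranes, which in the mammary gland lie under the epithelial ducts and around adipocytes, vessels, nerves and muscle. Type VI collagen forms beaded filaments and is a well-known product of stromal and adipose tissue.

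The libraries came from virgin female C57BL/6 mice that ate a control diet (CFA, 1 mg FA/kg) or a high folic acid diet (HFA, 5 mg FA/kg) for 4 weeks as adults. All mice then ate the same AIN93M maintenance diet for 4 weeks, and the right thoracic mammary fat pad was taken at postnatal day 130. There were 5 CFA and 5 HFA libraries, each from 1 mouse and named here by its title, in which the digit after the T is 1 for CFA and 2 for HFA. Whole tissue was sequenced, so fewer cells of a type and less RNA per cell cannot be told apart in any value below, and the pad was sampled at 1 time only.

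Reads counted on genes came to between 7672199 and 14829291 per library. Levels are given as CPM (the share of a gene in the library total, on a common scale) after TMM scaling, and levels of different genes are compared only per kilobase of their principal transcript. A count of 3, taken as the limit of detection, was worth 0.202 to 0.391 CPM. Markers of adipocytes and of luminal and basal epithelium were present in every library, with the summed level of 8 adipocyte markers between 10192 and 18041 CPM and that of 8 luminal markers between 366 and 2230 CPM. 3 libraries also held markers of lymphocytes: the 6 B cell markers summed to 302 CPM in T1234, 800 CPM in T1334 and 2375 CPM in T2334, and to 3.3 to 4.7 CPM in the other 7. T2334 stood apart in other ways too, with a median correlation of 0.791 with the other libraries (0.912 to 0.968 for the rest) and 682 CPM of 6 skeletal muscle markers, against 6619 to 52784 CPM elsewhere. Fits without T2334 are therefore also given for the count over all collagen genes and for some of the genes named. Counts by class and the diet results of marker and pathway genes are given with T2334 only.

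The repeat that defines the family can be read in the exons themselves, so 1 exon from the helix of each of 8 chains is shown (of Col4a1, the 150 bases around a break in the repeat), chosen because these chains carry the results on level or on diet. Capitals mark codons for glycine, each sequence starts with a complete codon, and the sequences are from GRCm38 on the coding strand, as annotated in GENCODE M21.
Col3a1 exon 6, chr1:45325360-45325413, plus strand: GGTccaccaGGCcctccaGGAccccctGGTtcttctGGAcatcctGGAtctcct
Col1a1 exon 8, chr11:94939904-94939957, plus strand: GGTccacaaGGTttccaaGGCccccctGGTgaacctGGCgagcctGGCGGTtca
Col5a2 exon 6, chr1:45434892-45434945, minus strand: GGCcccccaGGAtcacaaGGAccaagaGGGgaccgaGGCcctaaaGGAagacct
Col6a1 exon 9, chr10:76719623-76719676, minus strand: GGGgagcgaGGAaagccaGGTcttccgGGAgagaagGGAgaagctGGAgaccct
Col16a1 exon 34, chr4:130067219-130067272, plus strand: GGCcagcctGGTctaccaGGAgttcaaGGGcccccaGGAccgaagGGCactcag
Col9a2 exon 5, chr4:121043696-121043749, plus strand: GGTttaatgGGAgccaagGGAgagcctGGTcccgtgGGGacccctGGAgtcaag
Col9a3 exon 6, chr2:180601582-180601635, plus strand: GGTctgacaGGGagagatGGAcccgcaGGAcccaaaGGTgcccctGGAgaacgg
Col4a1 exon 21, chr8:11235096-11235245, minus strand: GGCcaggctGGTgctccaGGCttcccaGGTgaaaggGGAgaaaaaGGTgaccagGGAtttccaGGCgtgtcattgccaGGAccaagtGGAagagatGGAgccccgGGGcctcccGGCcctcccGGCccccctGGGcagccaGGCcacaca

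In the 7 exons of 54 bases a glycine codon opened each of the 6 groups of 9 bases, and Col1a1 held a further glycine at an X place. In the Col4a1 exon the repeat was broken once, by 2 codons beyond the last full triplet, and then went on. This difference ran through the classes. The longest unbroken Gly-X-Y run was 216 to 344 triplets in the 11 fibrillar chains, 39 to 66 in the 6 type IV chains, 37 to 87 in type VI and 32 to 113 in the FACITs. A fibrillar chain had 2 to 5 runs of at least 3 triplets and a type IV chain 23 to 27, although helix made up 74.9% to 78.9% of the residues of type IV and 53.5% to 77.2% of those of fibrillar chains. Exons of exactly 54 bases made up 305 of the 545 exons lying wholly in the helix of fibrillar chains (56.0%) and 12 of 258 in type IV (4.65%). The 3 type IX chains were alike in this respect, with a longest run of 113 triplets and 6 runs each, and Col16a1 was the most interrupted FACIT, with 23 runs.

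Fibrillar and basement membrane chains led the levels. Col3a1, the chain of type III collagen that joins type I in the fibrils of soft tissue, was at 353 CPM per kilobase over the 10 libraries, ahead of Col1a2 at 143, Col4a1 at 105, Col1a1 at 90.2 and Col4a2 at 69.6 CPM per kilobase. Col6a1 (55.2) and Col6a2 (51.9) came next, and 15 of the 43 genes were above 10 CPM per kilobase. The order of neighbours was often within their spread: Col4a1 was at 110 ± 31 CPM per kilobase in CFA libraries (SD, n = 5) and Col1a1 at 117 ± 51, and in HFA libraries Col4a1 was at 99.6 ± 43 and Col1a1 at 63.8 ± 47.

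**Figure D1:**
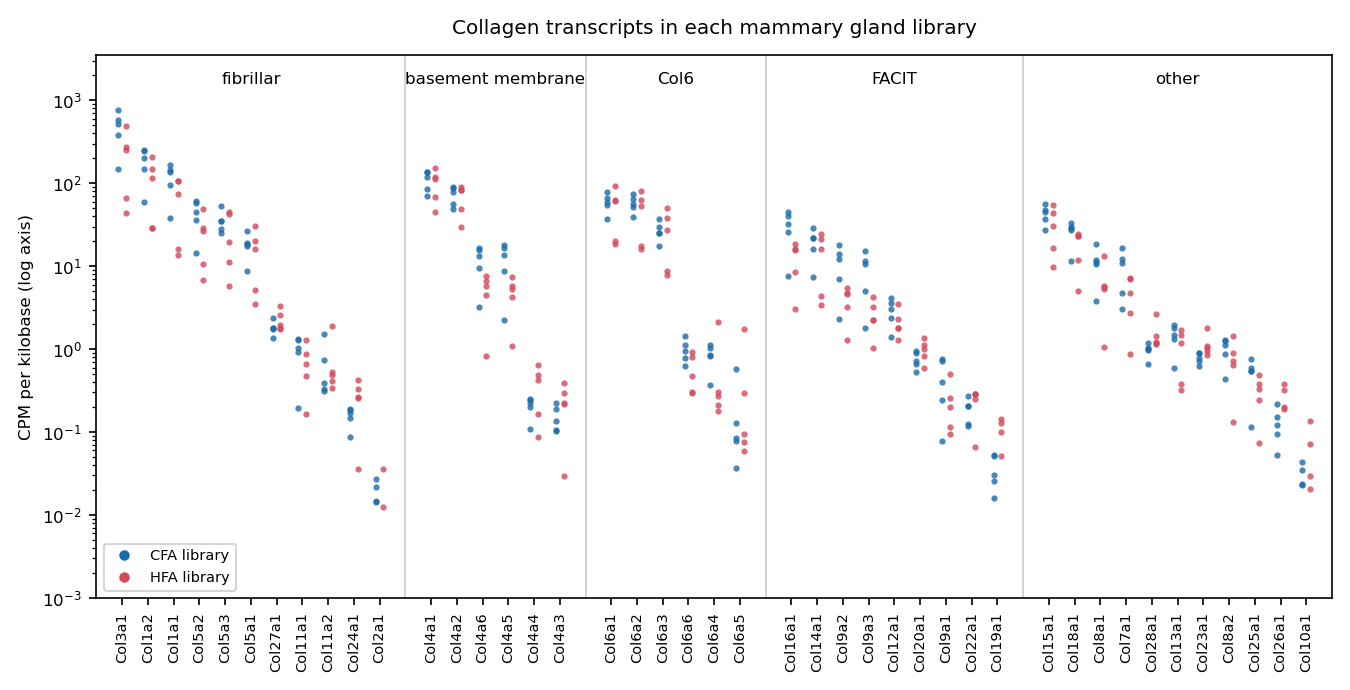
Level of each of the 43 collagen genes in CPM per kilobase of principal transcript (log axis), with 1 point per library, blue for CFA and red for HFA; libraries with no read of a gene have no point. Col3a1 is the highest gene at a mean of 353 CPM per kilobase, and CFA and HFA points overlap for all 39 genes tested.

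Collagens best known from cartilage differed widely in level. Col2a1, the main fibrillar chain of cartilage, had 8 reads in the 10 libraries together, and Col10a1, made by hypertrophic cartilage, had 12. Col11a1 and Col11a2, minor fibrillar chains of cartilage, were at 0.825 and 0.695 CPM per kilobase, and Col27a1 of bone and cartilage was at 2.06. Col9a2 and Col9a3, chains of type IX collagen, were at 7.32 and 5.71 CPM per kilobase, and Col9a1, the other chain of that molecule, was at 0.337. Of the 6 cartilage markers, Acan and Matn3 had 0 reads in 9 of 10 libraries and Hapln1 was at 0 to 0.446 CPM, while Comp was at 0.426 to 1.56 CPM, Cnmd at 1.02 to 13.5 CPM and Sox9, which other tissues also express, at 6.05 to 56.4 CPM. Their summed level was 14.4 to 69.6 CPM in CFA and 8.1 to 31.2 CPM in HFA libraries. Col19a1 (28 reads), Col26a1 (57 reads), Col2a1 and Col10a1 were too low for the test between diets, which left 39 genes.

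All collagens together were 0.170% to 1.18% of the reads counted on genes. Their summed level was highest in the CFA library T1314 at 11420 CPM, and the other CFA libraries were at 9364 (T1224), 8517 (T1234), 7172 (T1324) and 3401 CPM (T1334). In the HFA libraries it was 9015 (T2224), 6216 (T2214), 6033 (T2234), 2259 (T2314) and 1547 CPM (T2334). The groups therefore overlapped, with means of 7975 ± 2986 CPM (SD, n = 5) for CFA and 5014 ± 3086 CPM (SD, n = 5) for HFA.

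The makeup of this total also varied between libraries. Fibrillar chains were 61.0% ± 7.1 of collagen CPM in CFA and 48.7% ± 9.7 in HFA libraries (SD, n = 5 each), type IV chains were 18.1% ± 4.4 and 26.7% ± 7.6, and type VI chains 9.89% ± 2.8 and 13.0% ± 2.0. FACITs were 4.45% ± 0.70 and 4.13% ± 0.59, and the other chains 6.60% ± 0.72 and 7.50% ± 2.3. The fibrillar share was lowest in the HFA libraries T2314 (36.7%) and T2334 (40.4%), where type IV reached 36.9% and 32.5%, and it was next lowest in the CFA library T1334 at 50.5%. These shares are given as a description, since they sum to the whole and were not tested.

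The library a gene came from mattered for most chains in the same way. Of the 39 genes tested, 29 had their lowest level of all in T2334, and 29 had the lowest level of the CFA group in T1334. The highest level of the CFA group was in T1314 for 19 genes, and that of the HFA group in T2224 for 23. Genes ranged 2.44-fold (Col27a1) to 47.6-fold (Col6a5) between the lowest and the highest library, with a median of 8.60-fold. The SD of log2 CPM was larger among HFA than among CFA libraries for 32 of the 39 genes, including all 6 type VI chains and 9 of the 10 fibrillar chains tested. The same counts over all genes tested are not given here, so these cannot be read as particular to collagens. For comparison with other cells, the fibroblast markers (9 genes, summed) were also lowest in T2334 at 449 CPM. They were next lowest in T2314 at 664 CPM and T1334 at 866 CPM, against 1279 to 2958 CPM in the other 7 libraries. Among them Dpp4 went the other way, highest in T2334 at 94.0 CPM, against 7.04 to 73.7 CPM elsewhere. The part of cell makeup in the differences between libraries was not tested.

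**Figure D2:**
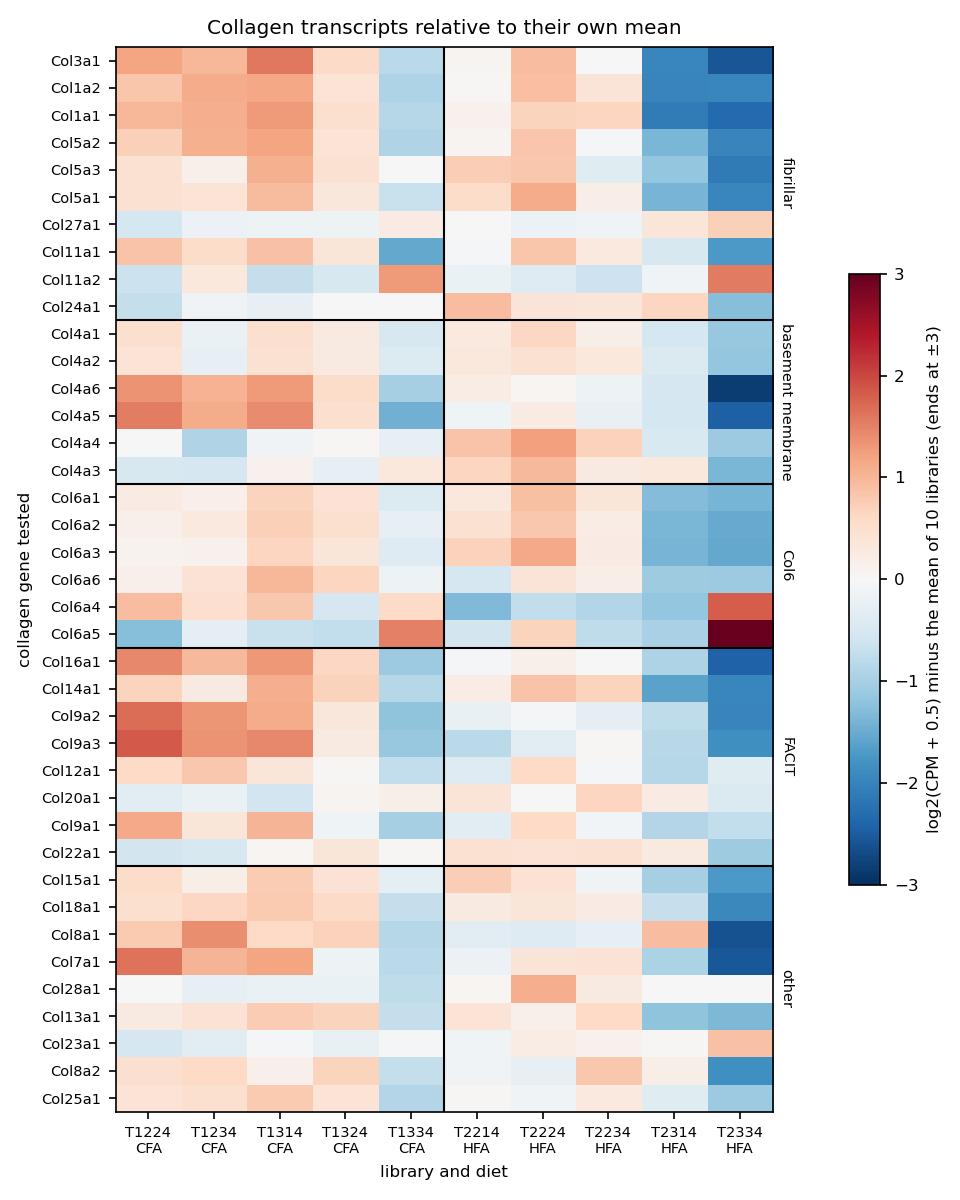
log2(CPM + 0.5) of the 39 collagen genes tested, as the difference from each gene's mean over 10 libraries (red above, blue below, ends at ±3), with genes in rows by class and libraries in columns. T2334 is the lowest library for 29 genes, while Col11a2, Col23a1, Col27a1, Col6a4 and Col6a5 are highest there.

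Between diets, most collagen genes were lower in HFA libraries but few by more than the spread between mice. By the quasi-likelihood test of edgeR, 29 of the 39 genes had a negative log2 fold change of HFA against CFA and 10 a positive one, with a median of −0.45 against 0.064 over all 15610 genes tested. An unadjusted p below 0.05 was reached by 6 collagen genes, where 7.36% of all genes tested reached it. Of these, 4 were lower in HFA, where the share of all genes was 3.49%, and 2 were higher, where it was 3.87%. No collagen gene had an adjusted p below 0.05 (the lowest was 0.648), and the share of all genes was 0%. For no collagen gene were the 5 HFA values all above or all below the 5 CFA values, as they were for 0.993% of all genes.

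The count at an unadjusted p below 0.05 depended on the libraries. It was 2 of 39 without T1224, without T1234 or without T1314, where 4.00%, 4.28% and 3.50% of all genes reached that p, and 11 of 39 without T1334, where 11.6% did. Without T2334 it was 10 of 39, where 25.8% of all genes reached it, with 28 collagen genes lower, 11 higher and a median log2 fold change of −0.31. Diets were also contrasted within each second title digit, in a fit of diet and digit groups to all 10 libraries. The digit 2 sets T1224 and T1234 against T2214, T2224 and T2234. The digit 3 sets T1314, T1324 and T1334 against T2314 and T2334. Within the digit 2 the median was −0.24 with 5 genes at that p, where 10.8% of all genes reached it. Within the digit 3 it was −1.66 with 22 genes at that p, where 8.01% did. The labels do not give the meaning of that digit, which splits the libraries in another way than diet.

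Counts by class are given as a description, beside the 7.36% of all genes at an unadjusted p below 0.05, 3.49% lower and 3.87% higher. FACITs had the lowest median log2 fold change, −0.69 over 8 genes tested, with 6 lower, 2 higher and 3 at an unadjusted p below 0.05. Fibrillar chains had a median of −0.49 over 10 genes, with 7 lower, 3 higher and 0 at that p. Type IV chains had a median of −0.13 over 6 genes, with 4 lower, 2 higher and 1 at that p, type VI chains −0.26 over 6 genes, with 5 lower, 1 higher and 0 at that p, and the other chains −0.51 over 9 genes, with 7 lower, 2 higher and 2 at that p.

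Of the collagen genes tested, Col9a3 and Col9a2 had the log2 fold changes largest in size, without an adjusted p below 0.05. Both encode chains of type IX collagen, a FACIT trimer of the chains of Col9a1, Col9a2 and Col9a3, which decorates thin fibrils. Col9a3 (ENSMUSG00000027570, chr2:180597790-180622189, plus strand) was at 46.2, 32.6, 35.0, 15.2 and 5.45 CPM in the CFA libraries T1224, T1234, T1314, T1324 and T1334. It was at 6.86, 9.75, 12.9, 6.77 and 3.12 CPM in the HFA libraries T2214, T2224, T2234, T2314 and T2334. In 4 of 5 CFA libraries it was above every HFA library, and T1334 lay among the HFA values. The log2 fold change was −1.78 (SE 0.54, unadjusted p = 0.0080, adjusted p = 0.648 by edgeR). Exons of Col9a3 overlap those of Tcfl5, on the other strand, and without a known strand setting reads in that stretch cannot be told apart.

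Col9a2 (ENSMUSG00000028626, chr4:121039385-121055322, plus strand) had a like pattern. Its CFA values were 53.2, 41.1, 35.9, 20.7 and 6.79 CPM, and its HFA values 13.8, 16.0, 13.3, 9.42 and 3.76 CPM, in the order of libraries above. Again 4 CFA libraries were above every HFA library, and the log2 fold change was −1.49 (SE 0.52, unadjusted p = 0.017, adjusted p = 0.655 by edgeR). Col9a1 was at 0.299 to 2.95 CPM in CFA and 0.366 to 1.90 CPM in HFA libraries, with a log2 fold change of −0.93 (unadjusted p = 0.164 by edgeR). The pair Col9a2 and Col9a3 moved together over the 10 libraries: the SD of the log2 ratio of their counts was 0.30, while those of the genes themselves were 1.20 and 1.29.

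With the level of epithelial markers as a covariate, the log2 fold change was −0.57 for Col9a3 (unadjusted p = 0.142 by edgeR) and −0.26 for Col9a2 (unadjusted p = 0.368 by edgeR). Without covariates, the unadjusted p of Col9a3 was between 0.00077 and 0.021 and that of Col9a2 between 0.0017 and 0.044 over the 10 fits of edgeR that left out 1 library each. In the contrast within the second title digit 2 the log2 fold change of Col9a3 was −2.004 (unadjusted p = 0.016 by edgeR). In that within the digit 3 it was −1.92 (unadjusted p = 0.029 by edgeR).

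Col16a1, a FACIT found in several tissues near fibrils and epithelial basement membrane, was the third member of the class with this difference. It was at 233.8, 168, 211, 133 and 39.8 CPM in CFA and at 82.8, 95.4, 84.7, 44.9 and 15.7 CPM in HFA libraries, in the same order of libraries. The same 4 CFA libraries were above every HFA library. The log2 fold change was −1.28 (SE 0.53, unadjusted p = 0.035, adjusted p = 0.657 by edgeR), and p was between 0.0072 and 0.077 when 1 library was left out, below 0.05 in 6 of 10 fits. Col14a1, a FACIT of type I fibrils that is abundant in dermal and stromal fibroblasts, was at 42.3 to 163 CPM in CFA and 19.3 to 140 CPM in HFA libraries, with a log2 fold change of −0.46 (unadjusted p = 0.426 by edgeR). Col12a1, a relative of Col14a1, was at 33.4 ± 12 CPM and 24.7 ± 9.9 CPM (SD, n = 5), and Col20a1 and Col22a1 were below 7 CPM in every library.

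**Figure D3:**
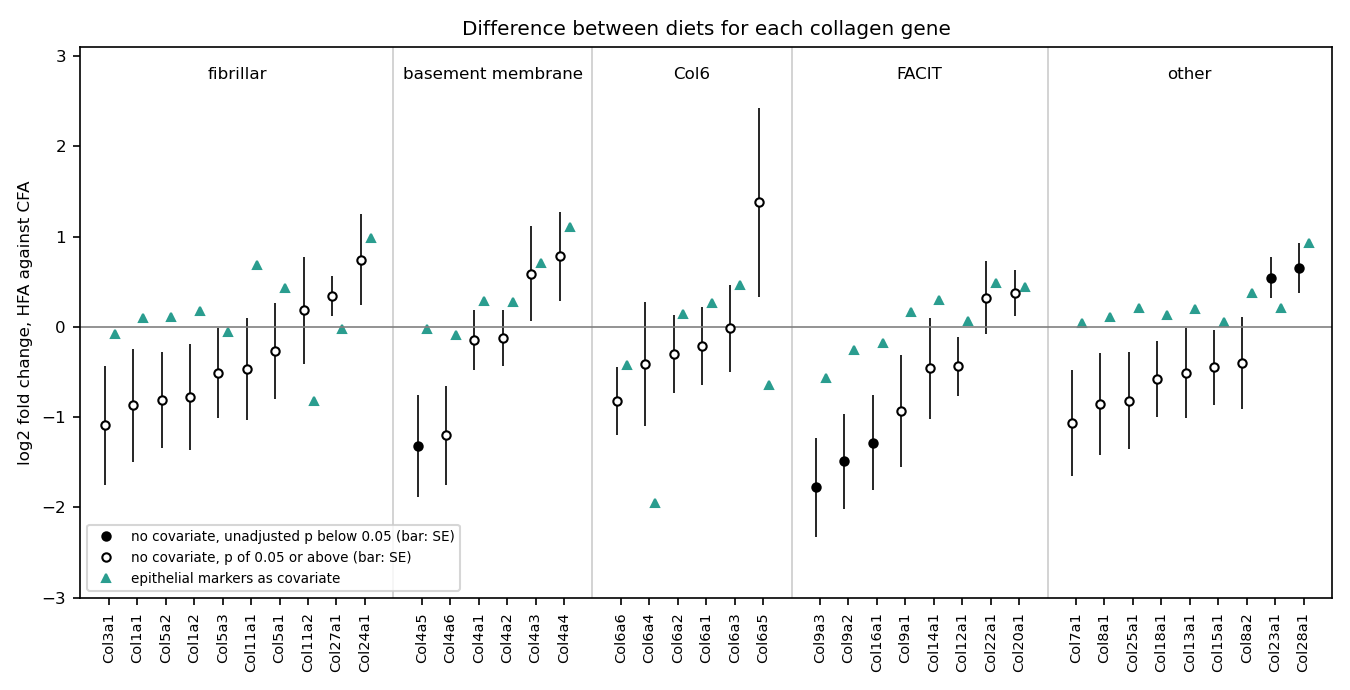
log2 fold change of HFA against CFA for the 39 collagen genes tested, by class: circles are from the fit without covariates with SE bars (filled where the unadjusted p is below 0.05), and triangles from the fit with the level of epithelial markers as a covariate. The 6 filled circles are Col9a3, Col9a2, Col16a1 and Col4a5 below 0 and Col23a1 and Col28a1 above it, and with the covariate 27 genes lie above 0.

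Of the type IV chains only Col4a5 had an unadjusted p below 0.05. Without covariates the restricted chains had the larger estimates, and with the epithelial covariate Col4a5 (−0.03) and Col4a6 (−0.09) were nearer to 0 than Col4a1 (0.29) and Col4a2 (0.28). Type IV molecules are assembled as set trimers, of which that of alpha 1 and alpha 2 chains occurs in nearly all basement membranes, and that of alpha 5 and alpha 6 chains in a few, among them the membranes under skin, smooth muscle and mammary epithelium. Col4a5 (ENSMUSG00000031274, chrX:141475385-141689234, plus strand) was at 119, 89.4, 110, 57.5 and 14.9 CPM in CFA and at 37.5, 48.9, 34.9, 28.2 and 7.13 CPM in HFA libraries, in the same order of libraries. The 4 CFA libraries other than T1334 were above every HFA library. Its log2 fold change was −1.32 (SE 0.57, unadjusted p = 0.041, adjusted p = 0.667 by edgeR), with p below 0.05 in 4 of the 10 fits that left out 1 library.

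Col4a6, Col4a3 and Col4a4 were chosen after their values were seen, to complete the class. Col4a6 was at 110, 89.1, 105, 63.3 and 21.5 CPM in CFA and at 50.5, 44.5, 38.5, 30.3 and 5.54 CPM in HFA libraries, with a log2 fold change of −1.20 (SE 0.55, unadjusted p = 0.053 by edgeR). Col4a5 and Col4a6 lie head to head on the X chromosome with 1308 bases between their starts, and the SD of their log2 ratio was 0.27, while those of the genes were 1.28 and 1.29. Col4a3 and Col4a4, the chains best known from the kidney filter and the lung, lie head to head on chromosome 1 with 71 bases between them. Col4a4 was at 1.10 to 2.53 CPM in CFA and 0.891 to 6.47 CPM in HFA libraries (log2 fold change 0.78, unadjusted p = 0.141 by edgeR). Col4a3 was at 0.878 to 1.94 CPM and 0.255 to 3.36 CPM (log2 fold change 0.59, unadjusted p = 0.289 by edgeR). Without T2334 the log2 fold changes were −0.97 for Col4a6 (unadjusted p = 0.036 by edgeR), 1.00 for Col4a4 (unadjusted p = 0.025 by edgeR) and 0.85 for Col4a3 (unadjusted p = 0.023 by edgeR), in a fit where 25.8% of all genes reached an unadjusted p below 0.05. At 4 to 75 reads per library, the SD of their log2 ratio was 0.64.

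Col4a1 (ENSMUSG00000031502, chr8:11198423-11312826, minus strand) and Col4a2 (ENSMUSG00000031503, chr8:11312805-11449287, plus strand) lie head to head, and their annotated starts overlap by 22 bases. The 30 bases at chr8:11312801-11312830 (GRCm38.p6, plus strand, RefSeq promoter sequence) are shown because both genes start within them, and capitals mark the bases that both annotations cover.
Col4a1 and Col4a2 starts: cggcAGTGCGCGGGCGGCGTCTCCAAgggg

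The windows of 300 bases around the starts were 74% (Col4a1) and 73.7% (Col4a2) G and C. The letters GGGCGG, the core of a GC box, were in the windows of 22 of the 34 collagen genes with a RefSeq promoter entry, on either strand, and in 62.2% of collagen windows against 35.7% of the 32851 windows of all genes. TATAAA was in 10.8% of collagen windows against 13.6% of all, and CCAAT in 32.4% against 37.4%. These are matches of letters only. Col1a1, Col4a3 and Col9a3 were among the genes with no entry.

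The pair had the smallest SD of the log2 ratio of any chains compared. Next came Col6a2 to Col6a1 at 0.12, where the genes had wider SDs of 0.82 and 0.79. Col4a1 was at 910, 573, 915, 781 and 466 CPM in CFA and at 797, 1006, 739, 455 and 298 CPM in HFA libraries, and Col4a2 at 565, 360, 585, 510 and 320 CPM and at 529, 583, 530, 316 and 191 CPM. Their ratio stayed between 1.40 and 1.72 in all 10 libraries, with an SD of 0.089 on the log2 scale where the genes had SDs of 0.56 and 0.54. The diets overlapped widely, with log2 fold changes of −0.15 for Col4a1 (SE 0.33, unadjusted p = 0.671 by edgeR) and −0.12 for Col4a2 (SE 0.31, unadjusted p = 0.702 by edgeR). Without T2334 these were 0.0020 and 0.026, so the sign of both rested on that library. Exons of the pair overlap at the start, where reads cannot be told apart without a known strand setting.

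**Figure D4:**
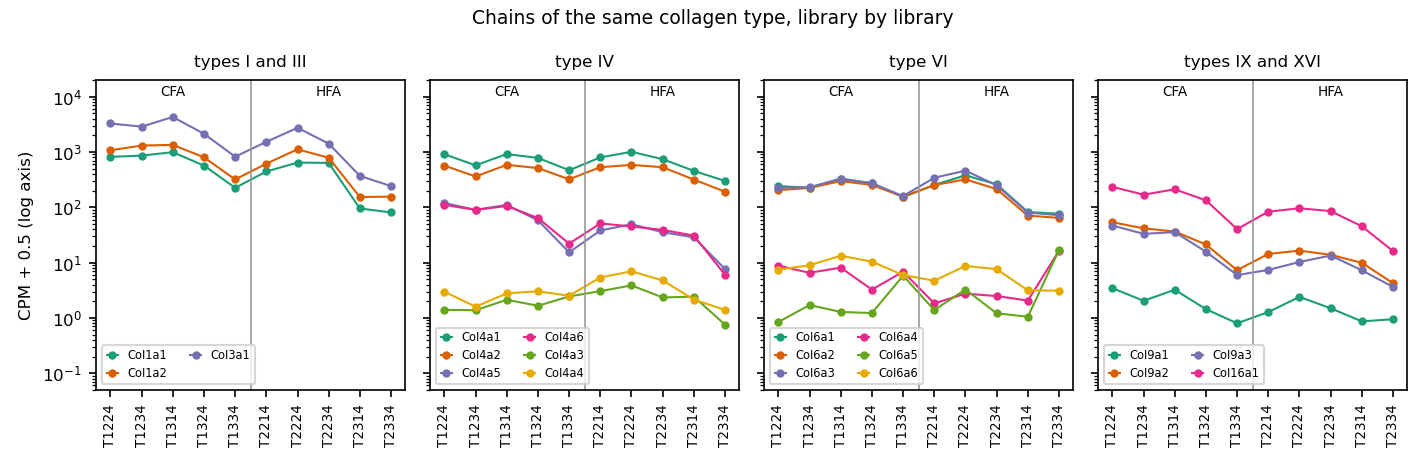
CPM + 0.5 (log axis) of chains of collagen types I and III, IV, VI, and IX and XVI in the 10 libraries, CFA left of the grey line and HFA right of it; lines join the points of 1 gene and imply no order of libraries. Col4a1 and Col4a2 run in parallel at a ratio of 1.40 to 1.72, Col4a5 and Col4a6 run together at a lower level, and Col6a4 and Col6a5 alone among these chains are highest in T2334.

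The 3 leading type VI chains were close in level and in profile. Col6a1, Col6a2 and Col6a3 encode the chains of the common type VI trimer, which binds basement membranes and cells to the stroma. Col6a1 was at 241, 226, 323, 274 and 152 CPM in CFA and at 253, 378, 259, 81.7 and 75.9 CPM in HFA libraries. The HFA libraries T2224, T2214 and T2234 were within or above the CFA values, and T2314 and T2334 were below all of them. The log2 fold changes were −0.21 for Col6a1 (SE 0.43, unadjusted p = 0.629 by edgeR), −0.30 for Col6a2 (SE 0.43, unadjusted p = 0.498 by edgeR) and −0.015 for Col6a3 (SE 0.48, unadjusted p = 0.976 by edgeR). Col6a3 had the opposite sign without T2334 (0.19), T2314 (0.21), T1314 (0.088) or T1324 (0.027).

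Col6a4, Col6a5 and Col6a6, whose chains can replace that of Col6a3, were at 0.732, 0.319 and 0.778 CPM per kilobase against 26.8 for Col6a3. Col6a6 was at 5.45 to 12.8 CPM in CFA and 2.61 to 8.20 CPM in HFA libraries (log2 fold change −0.82, unadjusted p = 0.052 by edgeR). Col6a5 reached 16.4 CPM in T2334 and 5.30 CPM in T1334 and was at 0.343 to 2.76 CPM in the other 8 libraries. Col6a4 reached 15.8 CPM in T2334 and was at 1.33 to 8.31 CPM elsewhere. The other HFA libraries, at 1.33 to 2.24 CPM, were all below every CFA library. With T2334 the log2 fold change of Col6a4 was −0.41 (SE 0.69, unadjusted p = 0.563 by edgeR), and its fit without T2334 is not given here. T2334 and T1334 were the libraries highest in B cell markers, and the part of those cells in the values of Col6a4 and Col6a5 was not tested.

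Type I and type III chains had the highest levels and wide spreads. Col3a1 (ENSMUSG00000026043, chr1:45311538-45349706, plus strand) was at 3274, 2870, 4285, 2129 and 821 CPM in CFA and at 1524, 2736, 1414, 368 and 241 CPM in HFA libraries. T2224 lay among the CFA values and T1334 among the HFA values, and the log2 fold change was −1.09 (SE 0.65, unadjusted p = 0.126 by edgeR). Col1a1 and Col1a2, the chains of type I collagen and the main load-bearing fibril, had log2 fold changes of −0.87 (SE 0.62, unadjusted p = 0.192 by edgeR) and −0.78 (SE 0.59, unadjusted p = 0.218 by edgeR). Col1a1 was at 224.2 to 989 CPM in CFA and 80.3 to 641 CPM in HFA libraries, and Col1a2 at 318 to 1343 CPM and 153 to 1116 CPM.

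The difference for Col3a1 was not alike in the contrasts within the second title digit. Within the digit 2 its log2 fold change was −0.70 (unadjusted p = 0.294 by edgeR). Within the digit 3, whose HFA libraries are T2314 and T2334, it was −2.98 (unadjusted p = 0.0028 by edgeR). The difference between these contrasts was not tested.

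Type V chains, which are built into type I fibrils and limit their diameter, were intermediate. Col5a2, whose gene neighbours Col3a1 on chromosome 1 at a distance of 24614 bases, had a log2 fold change of −0.81 (unadjusted p = 0.157 by edgeR), Col5a3 one of −0.51 and Col5a1 one of −0.27. Among the minor fibrillar chains Col11a2 was at 10.2 CPM in T2334 and 8.21 CPM in T1334 and at 1.69 to 3.95 CPM elsewhere, while Col11a1 was at its lowest in these libraries, at 1.27 and 1.49 CPM. Col27a1 ranged least of all collagens, 10.4 to 25.5 CPM, and was highest in T2334. Col24a1 was at 0.618 to 1.34 CPM in CFA and 0.255 to 2.99 CPM in HFA libraries.

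Ratios between chains need no scaling between libraries, and 8 of them were compared between diets by two-sided exact permutation tests over the 252 ways of choosing 5 of 10 libraries, with a smallest possible p of 0.0079. The log2 ratio of Col5a1 to Col5a2 was 0.39 higher in HFA, at −0.83 ± 0.32 in CFA and −0.44 ± 0.21 in HFA libraries (SD, n = 5, exact permutation p = 0.040, adjusted over 8 ratios p = 0.317). That of Col4a1 to Col1a1 was 0.98 higher, at 0.20 ± 0.62 and 1.18 ± 0.87 (exact permutation p = 0.087, adjusted p = 0.349). It was highest in T2314 and T2334, where Col4a1 had 4.81 and 3.72 times the counts of Col1a1, against 0.666 to 2.08 times in the other libraries. The other ratios were nearer to no difference: Col1a1 to Col1a2 by −0.16 (exact permutation p = 0.222), Col4a1 to Col4a2 by −0.027 (exact permutation p = 0.667), Col6a2 to Col6a1 by −0.11 (exact permutation p = 0.151) and Col6a3 to Col6a1 by 0.11 (exact permutation p = 0.405). Col3a1 to Col1a1 differed by −0.21 (exact permutation p = 0.278) and Col15a1 to Col18a1 by 0.040 (exact permutation p = 0.841). None had an adjusted p below 0.05.

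The remaining chains held the 2 collagens that were higher in HFA at an unadjusted p below 0.05. Col28a1, a von Willebrand factor domain collagen described in peripheral nerve, was at 5.08, 4.17, 4.29, 4.34 and 2.76 CPM in CFA and at 5.20, 11.2, 6.10, 4.94 and 5.03 CPM in HFA libraries. T1224 was above 2 of the HFA libraries, and the log2 fold change was 0.65 (SE 0.28, unadjusted p = 0.038, adjusted p = 0.662 by edgeR). The highest value was T2224, and without it the log2 fold change was 0.36 (unadjusted p = 0.117 by edgeR).

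Col23a1, a transmembrane collagen, was at 3.57, 4.06, 5.14, 4.41 and 5.07 CPM in CFA and at 4.87, 6.21, 5.82, 5.39 and 10.1 CPM in HFA libraries. Its log2 fold change was 0.55 (SE 0.23, unadjusted p = 0.037, adjusted p = 0.661 by edgeR) and 0.28 without T2334 (unadjusted p = 0.142 by edgeR). Both genes had 37 to 159 reads per library.

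Col15a1 and Col18a1 encode the multiplexins, proteoglycan collagens of the basement membrane zone whose ends can be released as restin and endostatin. Col15a1 was at 141 to 288 CPM in CFA and 51.3 to 285 CPM in HFA libraries (log2 fold change −0.45, unadjusted p = 0.307 by edgeR), and Col18a1 at 55.9 to 161 CPM and 23.9 to 119 CPM (log2 fold change −0.57, unadjusted p = 0.200 by edgeR). Col7a1, the anchoring fibril that ties epithelial basement membrane to the stroma, was at 154, 101, 112, 44.4 and 27.8 CPM in CFA and at 44.0, 64.9, 67.5, 25.5 and 8.02 CPM in HFA libraries (log2 fold change −1.07, unadjusted p = 0.098 by edgeR). Col8a1, a short-chain network collagen, had its highest HFA level, 68.0 CPM, in T2314, and was at 19.5 to 94.3 CPM in CFA and 5.35 to 29.7 CPM in the other HFA libraries. Its relative Col8a2 and the transmembrane collagens Col13a1 and Col25a1 were below 7 CPM in every library, with log2 fold changes of −0.40, −0.51 and −0.82 (unadjusted p = 0.448, 0.329 and 0.157 by edgeR).

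The profile of each gene over the 10 libraries was set beside those of 14 lists of cell markers, by the SD of the gene's log2 level after the mean log2 level of the list was subtracted. Points share their library and depth, so this is a description. Col6a1, Col6a3 and Col14a1 lost most of their spread against fibroblast markers, from 0.79 to 0.27, from 0.88 to 0.28 and from 1.08 to 0.38, and Col5a1 from 1.01 to 0.34. Col4a1 and Col4a2 lay closest to markers of pericytes and smooth muscle, with SDs falling from 0.56 to 0.20 and from 0.54 to 0.14.

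Basal epithelium, the contractile outer layer of the ducts, was the closest list for chains of several classes. Among them were the main stromal chains Col3a1 (from 1.38 to 0.73), Col1a1 (from 1.31 to 0.66), Col1a2 (from 1.20 to 0.60) and Col5a2 (from 1.08 to 0.51). For these chains fibroblast markers were close behind, at 0.77 for Col3a1, 0.71 for Col1a1, 0.65 for Col1a2 and 0.60 for Col5a2. Col9a2 went from 1.15 to 0.49, Col9a3 from 1.23 to 0.56, Col16a1 from 1.20 to 0.53, Col7a1 from 1.23 to 0.55 and Col4a5 from 1.26 to 0.64, and Col4a6 was closest to luminal epithelium at 0.62, with 0.64 for basal. Col4a3, Col4a4, Col22a1 and Col24a1 lay closest to Schwann cell markers, with Col4a3 going from 0.67 to 0.30. The closest list was basal epithelium for 12 of the 43 genes and fibroblast for 6.

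**Figure D5:**
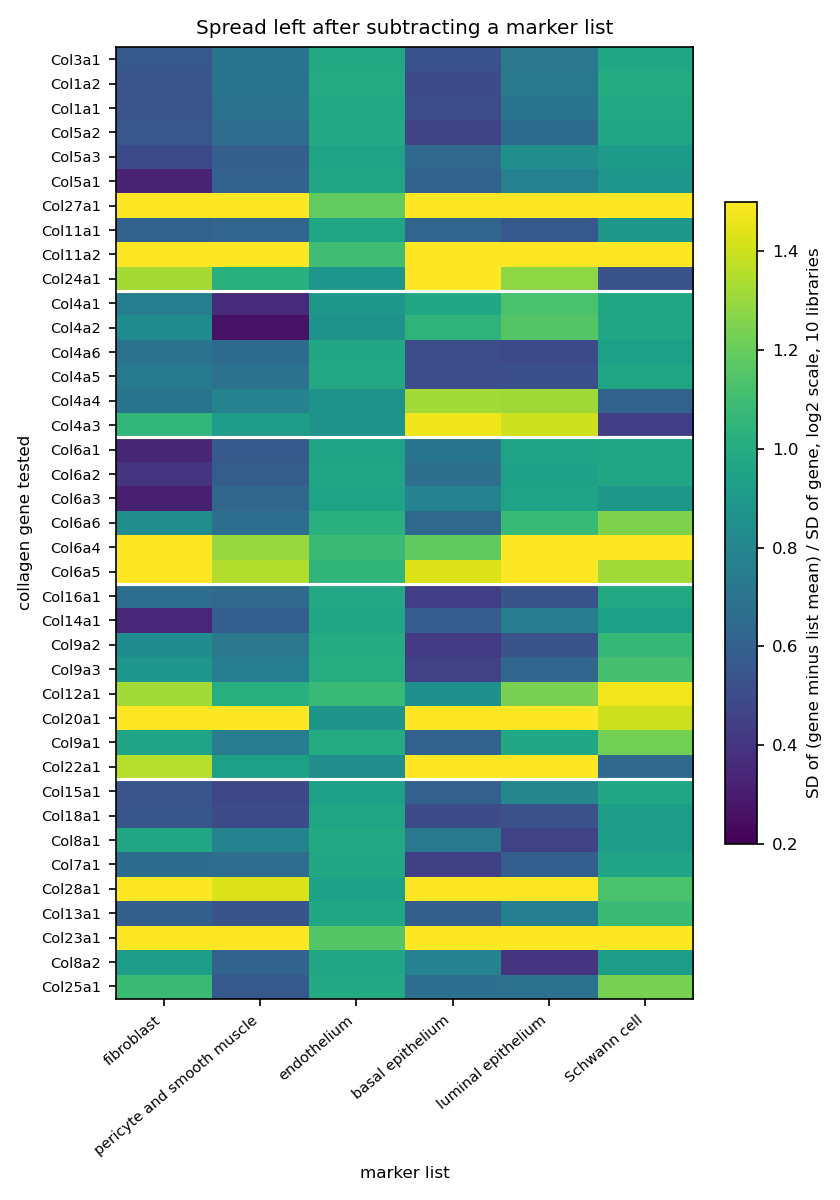
SD over 10 libraries of a gene's log2 level minus the mean log2 level of a marker list, divided by the SD of the gene alone, for the 39 collagen genes tested and 6 of the 14 lists; dark cells mark genes whose level tracked that of the list (the scale runs from 0.2 to 1.5). Col4a2 is darkest for pericyte and smooth muscle (SD 0.54 alone, 0.14 relative to the list) and the 3 leading type VI chains for fibroblast.

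Most epithelial markers had lower estimates in HFA libraries. Of 6 basal markers 5 had a lower estimate in HFA and 1 a higher one, with 1 at an unadjusted p below 0.05. Of 8 luminal markers 7 were lower and 1 higher, with 2 at that p, and 7.36% of all genes were at that p. The summed basal level was 268 to 882 CPM in CFA and 151 to 647 CPM in HFA libraries, and the luminal level 519 to 2230 CPM and 366 to 1937 CPM. None of these markers was at 0 in all libraries. Dsc3 went another way than the rest of the basal list, each of which was lowest in T2334. It was at 11.1, 17.4 and 53.5 CPM in T1234, T1334 and T2334, and at 0 (T2314) to 6.95 CPM elsewhere. Dsc3 is part of the basal mean used above and in the covariate below, and its weight in those results was not tested. With the mean of the luminal and basal markers as a covariate, the collagen genes divided into 27 higher and 12 lower at a median log2 fold change of 0.14. In that fit 2 had an unadjusted p below 0.05, where 7.49% of all genes had. Under that covariate Col16a1 was at −0.18, Col4a5 at −0.03 and Col3a1 at −0.08. The genes at an unadjusted p below 0.05 were Col28a1, at 0.93 (unadjusted p = 0.014 by edgeR), and Col6a4, at −1.95 (unadjusted p = 0.038 by edgeR).

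Of the 9 fibroblast markers 6 had a higher and 3 a lower estimate in HFA, with 0 at an unadjusted p below 0.05, where 7.36% of all genes were. The summed level of these markers was 866 to 1999 CPM in CFA and 449 to 2958 CPM in HFA libraries. Dpp4, which was highest in T2334, is part of the fibroblast mean used here and in the profiles above. Its weight in those results was not tested. With the mean of the fibroblast markers as a covariate the collagen genes divided into 9 higher and 30 lower, at a median of −0.42 on the log2 scale. In that fit 17 had an unadjusted p below 0.05, where 10.8% of all genes had. When the lymphocyte markers (B and T cell) were the covariate, 18 had such a p, where 14.1% of all genes had, at a median of −0.74. The adjusted p was below 0.05 for 0 collagen genes under each of these covariates.

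The genes that make, export and read collagen were followed in 4 lists. Of 38 genes tested 27 were lower and 11 higher in HFA, 4 had an unadjusted p below 0.05, where 7.36% of all genes had, and 0 an adjusted p below 0.05. Serpinh1, the collagen-specific chaperone HSP47 of the endoplasmic reticulum, was at 460, 445, 620, 411 and 299.8 CPM in CFA and at 331, 323, 246, 197 and 126 CPM in HFA libraries, so that T1334 alone among CFA libraries lay within the HFA values. Its log2 fold change was −0.87 (SE 0.28, unadjusted p = 0.011, adjusted p = 0.655 by edgeR). Fkbp10, a prolyl isomerase that acts on procollagen, was at 14.8 to 34.4 CPM and 12.7 to 24.2 CPM (log2 fold change −0.58, unadjusted p = 0.049 by edgeR). Mia3, which loads procollagen into transport vesicles, was higher in HFA, at 71.0 to 87.4 CPM in CFA and 85.7 to 103 CPM in HFA libraries (log2 fold change 0.27, unadjusted p = 0.020 by edgeR).

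Adamts3, a protease that removes the amino-terminal propeptide, was at 1.64 to 11.2 CPM in CFA and 1.02 to 4.12 CPM in HFA libraries (log2 fold change −1.29, unadjusted p = 0.027 by edgeR). The prolyl and lysyl hydroxylation list had 11 of 14 genes lower, 3 higher and 0 at an unadjusted p below 0.05. Propeptide removal had 5 of 7 lower and 2 higher, chaperones and export 5 of 8 lower and 3 higher, and collagen receptors and uptake 6 of 9 lower and 3 higher, with 0 of the last at that p.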

How the data were processed

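RNA of the mammary fat pad was sequenced from 5 CFA and 5 HFA mice, and the labels gave each mouse its group. The authors aligned paired reads to GRCm38 (mm10) with TopHat2 2.0.14 and Bowtie2 2.2.5 and counted them with HTSeq 0.6.1 on Ensembl release 83. The deposited files hold these raw counts for 46983 genes, with no normalization. The authors dropped 1 sample whose reverse reads were poor and another by a MAD score. Reads with more than 1 alignment (28.8% to 33.9% of counted lines) and reads on more than 1 gene (3.52% to 4.29%) were on no gene, and the strand setting of the counting is not given in the sources used here. 13 of the 43 collagen genes share exon bases with another gene.

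Symbols and positions were found for 46488 genes in GENCODE M21. Diets were compared in R 4.3.3 with edgeR 4.0.16 (filterByExpr, TMM, quasi-likelihood test) without covariates, since the cage used in the study's model is not in the labels, with Benjamini-Hochberg adjustment over 15610 genes. SE is the log2 fold change over the root of F. Log2 levels took CPM + 0.5. The script was tested on simulated data. Alternatives were RLE scaling, no filter, DESeq2 1.42.0, limma 3.58.1 voom with quality weights, covariates of marker lists, the second title digit as a term or split, a replicate block, and each library left out. The helix was read from GENCODE M21 coding sequence as runs of at least 3 Gly-X-Y triplets.

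Named were collagens with an unadjusted p below 0.05, the highest of each class per kilobase (3 fibrillar, 2 type IV, 3 type VI, 2 FACIT, 2 other), and pathway genes with an unadjusted p below 0.05. Further genes are given to account for every member. The members, the lists and the tests were chosen with earlier results of these data known. The SDs are between mice, and intervals for counting error only were not computed. Protein sequences were not used here.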

Additional observations from a re-analysis of the deposited data

Results flagged for a closer look

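There were 78 checks, of 39 collagen genes in 2 diets. In 7 a library's gap to its nearest neighbour was over 0.71 of the range of its group of 5. About 1 in 20 groups of normally distributed values pass that limit. The gaps were taken on unlogged CPM and the checks share libraries, so that rate need not hold here. The share over all genes is not given. In the HFA group T2334 was the far library in 5 of the 7. It was highest for Col6a5 (16.4 CPM, others 0.549 to 2.76), Col6a4 (15.8 CPM, others 1.33 to 2.24), Col11a2 (10.2 CPM, others 1.84 to 2.83) and Col23a1 (10.1 CPM, others 4.87 to 6.21), and lowest for Col22a1 (0.573 CPM, others 2.19 to 2.55). T2224 was highest for Col28a1 (11.2 CPM, others 4.94 to 6.10). In the CFA group T1334 was highest for Col6a5 (5.30 CPM, others 0.343 to 1.21).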

How the results depend on the processing

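The count of collagen genes at an unadjusted p below 0.05 was 6, also with RLE scaling and without a filter, and 8 by DESeq2 (9.45% of all genes). It was 15 with limma voom and quality weights (where 30.1% of all genes reached that p), 14 when the second title digit was a term (9.95%), 12 with the replicate block (6.88%), 17 and 18 with fibroblast (10.8%) and with B and T cell markers (14.1%) as covariates, 2 with epithelial markers (7.49%), 22 within the title digit 3 (8.01%), and 2 to 11 without 1 library. The count at an adjusted p below 0.05 was 0 except with voom and quality weights, where it was 1 (Col6a4, chosen after its values were seen) and 1037 of 15610 genes were past it. Libraries sharing title digits 2 to 4 had correlations of deviations of 0.29, −0.28, 0.10 and 0.40, so a pairing was neither shown nor excluded. The value of 0.40 was for T1334 and T2334, which both held B cell markers. T1324 and T2214 share these digits with no other library, so neither adds to the diet estimate of the block fit. The block moved the count of calls from 6 to 12. With it the unadjusted p by edgeR was 0.00021 for Col4a6, 0.047 for Col3a1, 0.029 for Col18a1 and 0.042 for Col15a1. For Col23a1 it rose to 0.066.

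With the epithelial covariate the median log2 fold change was 0.14 over all collagen genes, 0.20 for the other chains and 0.11 for FACITs. Col14a1 (0.30), Col15a1 (0.050), Col18a1 (0.14), Col1a1 (0.10), Col1a2 (0.18), Col4a1 (0.29), Col4a2 (0.28), Col6a1 (0.27), Col6a2 (0.14) and Col6a3 (0.46) were then above 0. Within the title digit 2, type VI had a median of 0.32, and Col14a1 (0.13), Col15a1 (0.021), Col4a1 (0.19), Col4a2 (0.24), Col6a1 (0.35), Col6a2 (0.29) and Col6a3 (0.63) were above 0. Within the digit 3 the medians were −1.66 over all, −2.06 for fibrillar, −0.92 for type IV, −1.70 for type VI, −1.69 for FACIT and −1.55 for other chains, and Col4a3 (−0.58) and Col4a4 (−0.85) were below 0. With voom and quality weights Col4a2 was at 0.015 and Col6a3 at 0.15. The cause of these shifts was not tested.

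Without 1 library, Col4a1 ranged from −0.35 to 0.0020, Col4a2 from −0.26 to 0.026 and Col6a3 from −0.39 to 0.21, and the log2 ratios of Col4a1 to Col4a2 from −0.072 to 0.0045 and of Col15a1 to Col18a1 from −0.072 to 0.16. Genes with few reads are limited by depth: at 4 to 39 reads per library (Col4a3) differences under the spread were not detectable.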
